A study of Mus musculus with 8 samples.

Results

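Amyloid precursor protein (APP), its 2 relatives and the proteases that cut them were followed through inhibition of MYC and its withdrawal in mouse embryonic stem cells. The group holds 9 genes out of 18193 genes measured: the precursor genes App, Aplp1 and Aplp2, the beta-secretase genes Bace1 and Bace2, the gamma-secretase subunit genes Psen2, Ncstn and Aph1a, and the alpha-secretase gene Adam10. They were taken by symbol from the array annotation, with all 31 probe sets that carry 1 of these symbols alone, and no filter on level was used. The list was drawn up with the differences between the 3 groups of arrays already known. The values of these 9 genes are therefore a description, without a test, and support nothing beyond themselves.

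Total RNA was hybridised to 8 Affymetrix arrays, 1 per sample. The inhibitor-treated group (MYCi, 2 arrays) had 60 h of 10058-F4 at 64 μM, a small molecule that disrupts the pairing of MYC with MAX. The released group (Resc, 3 arrays) had the same 60 h of inhibitor and then 48 h without it, and the DMSO group (3 arrays) had 60 h of the solvent alone. All groups grew without feeders or serum in 2i medium, which holds leukaemia inhibitory factor, the MEK inhibitor PD0325901 at 1 μM and the GSK3 inhibitor CHIR99021 at 3 μM. The labels name neither the cell line nor separate cultures, so the spread between arrays may be technical. The released arrays were taken later than the others, and there was no DMSO group of that later time here. Values are log2 expression values relative within an array, so a shift in total RNA per cell would not show, and fewer expressing cells and less RNA per cell cannot be told apart. Levels were not compared between probe sets, whose probes differ in affinity.

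APP and its relatives APLP1 and APLP2 are membrane proteins with a large outer part and a short cytoplasmic tail. Alpha-secretases such as ADAM10, or the beta-secretase BACE1, first shed the outer part. Gamma-secretase, a complex of a presenilin, nicastrin, APH-1 and PEN-2, then cuts the remaining stub within the membrane, and after a beta-secretase cut this yields amyloid-beta. The same enzymes process Notch receptors, cadherins and other surface proteins, and in mice the APP relatives partly replace one another.

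Arrays of each group resembled each other closely, and the embryonic stem cell markers were present in every group. Arrays of the same group correlated at 0.9977 to 0.9982, taken across genes, which are not independent replicates. Inhibitor-treated and DMSO arrays correlated at 0.9803 to 0.9808. All 16 stem cell markers examined were above the highest bacterial Trpn control value of 2.95 in each group, and their summed log2 level was 168.2 to 168.5 on released, 165.8 to 166.1 on inhibitor-treated and 167.9 to 168.2 on DMSO arrays. With the inhibitor 4 of the 16 rose and 6 fell, against 19.2% and 22.3% of all genes. Those that rose were Zfp42 (0.69 ± 0.073), Klf4 (0.46 ± 0.076), Tfcp2l1 (0.33 ± 0.058) and Esrrb (0.20 ± 0.059). Their count was 2 when the probe set with the largest interquartile range was taken for each gene. Tfcp2l1 then differed by -0.10 and Esrrb by -0.23, and neither was called. Probe sets ranged from -0.14 to 0.33 for Tfcp2l1 and from -0.23 to 0.20 for Esrrb. With the mean of all probe sets these 2 genes were not called either, at 0.03 and 0. The call of Esrrb also ended without any 1 of 3 arrays. Utf1 (-1.79 ± 0.061) and Dppa3 (-1.08 ± 0.072) fell most, though probe sets of Utf1 ranged from -1.79 to -0.02. After withdrawal 2 were higher than DMSO, Nr0b1 (0.51 ± 0.067) and Dppa4 (0.38 ± 0.076), and 1 was lower, Dppa3 (-1.33 ± 0.065). The higher count was 1 without DMSO replicate 1, where the call of Dppa4 ended. For Gapdh, the 3′ minus 5′ control value was -0.216 to -0.148 on inhibitor-treated and -0.13 to -0.108 on DMSO arrays, and for Actb it lay between 0.248 and 0.288 on all arrays. The Gapdh ranges of these groups did not overlap, and the part of RNA integrity in the results was not tested.

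Promoter windows are shown for App and Aplp1, which moved in opposite directions with the inhibitor. Those of Adam10 and Psen2 were chosen because they hold the CACGTG motif that MYC and MAX bind. Ncstn, which differed by 0.54 as Psen2 did, has no such match and is not shown, nor is the second Psen2 window, also without it. The table of RefSeq windows for GRCm38.p6 had 8 windows for 7 of the 9 genes, each reaching from 250 bases before to 50 bases after an annotated start. Capitals mark matches on either strand to CACGTG, to TGANTCA, the AP-1 motif, or to GGGCGG, the GC box.
App, chr16:85173658-85173957, minus strand: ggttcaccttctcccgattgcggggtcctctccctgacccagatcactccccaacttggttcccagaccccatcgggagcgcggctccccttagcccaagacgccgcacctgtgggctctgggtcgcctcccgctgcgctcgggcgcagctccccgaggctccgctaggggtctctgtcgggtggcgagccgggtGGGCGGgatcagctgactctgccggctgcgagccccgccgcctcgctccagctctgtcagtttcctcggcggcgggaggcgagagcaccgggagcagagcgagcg
Aplp1, chr7:30445533-30445832, minus strand: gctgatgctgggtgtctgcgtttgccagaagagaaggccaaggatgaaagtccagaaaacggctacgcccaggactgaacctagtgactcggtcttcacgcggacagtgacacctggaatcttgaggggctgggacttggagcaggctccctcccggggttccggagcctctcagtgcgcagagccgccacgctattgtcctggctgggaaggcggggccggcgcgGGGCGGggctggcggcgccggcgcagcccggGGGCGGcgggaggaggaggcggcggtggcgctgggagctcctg
Adam10, chr9:70678732-70679031, plus strand: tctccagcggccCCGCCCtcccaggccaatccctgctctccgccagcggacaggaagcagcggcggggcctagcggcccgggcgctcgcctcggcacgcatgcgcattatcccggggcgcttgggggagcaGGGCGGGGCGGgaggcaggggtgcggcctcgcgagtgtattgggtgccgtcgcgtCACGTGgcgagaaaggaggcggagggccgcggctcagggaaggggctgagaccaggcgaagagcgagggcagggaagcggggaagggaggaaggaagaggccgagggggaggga
Psen2, chr1:180245901-180246200, minus strand: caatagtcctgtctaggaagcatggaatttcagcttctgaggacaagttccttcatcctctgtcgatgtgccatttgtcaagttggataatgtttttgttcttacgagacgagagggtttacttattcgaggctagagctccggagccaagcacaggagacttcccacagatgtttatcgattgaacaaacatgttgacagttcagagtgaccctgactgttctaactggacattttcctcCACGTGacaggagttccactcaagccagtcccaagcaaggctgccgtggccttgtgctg
CACGTG stood in the Adam10 window, where it begins 64 bases before the start, and in this window of Psen2, where it begins 9 bases before the start. The other Psen2 window and those of App, Aplp1, Aplp2, Ncstn and Aph1a had no match to these letters. Of all 32851 windows, 7.15% held CACGTG, 7.81% TGANTCA and 35.7% GGGCGG. None of the 8 windows held TGANTCA. The GC box was in 6 of them, with 1 match for App, 2 for Aplp1 and 4 for Aplp2. The App window had 71% G and C, against a median of 52.7% over all windows. These matches describe the letters only.

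App was the member with the largest difference. On the probe set with the highest mean level (1427442_a_at), its log2 values were 10.02 and 9.96 in inhibitor-treated cells, against 6.41, 6.43 and 6.12 in DMSO cells. The lowest inhibitor-treated value lay far above the highest DMSO value. The difference was 3.67 ± 0.096 on the log2 scale (moderated standard error, here and below), or 12.7-fold. A second probe set, 1420621_a_at, read 8.76 and 8.75 in inhibitor-treated cells and 6.06, 5.68 and 5.41 in DMSO cells, a difference of 3.04 ± 0.18. Both of these were far from background in every sample.

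The remaining probe sets of App gave no such signal. Probe set 1438374_x_at read 2.47 and 2.42 in inhibitor-treated cells and 2.49, 2.98 and 2.61 in DMSO cells. Probe set 1438373_at read 2.48 and 2.37 in inhibitor-treated cells and 2.59, 2.47 and 2.47 in DMSO cells. Bacterial Trpn controls, which have no target in the sample, lay between 2.15 and 2.95, so these 2 probe sets stood at the level of probes without a target in all 3 groups, with the DMSO value of 2.98 just above it. Averaging all 4 probe sets gave a log2 difference of 1.59 for App in place of 3.67.

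**Figure D1:**
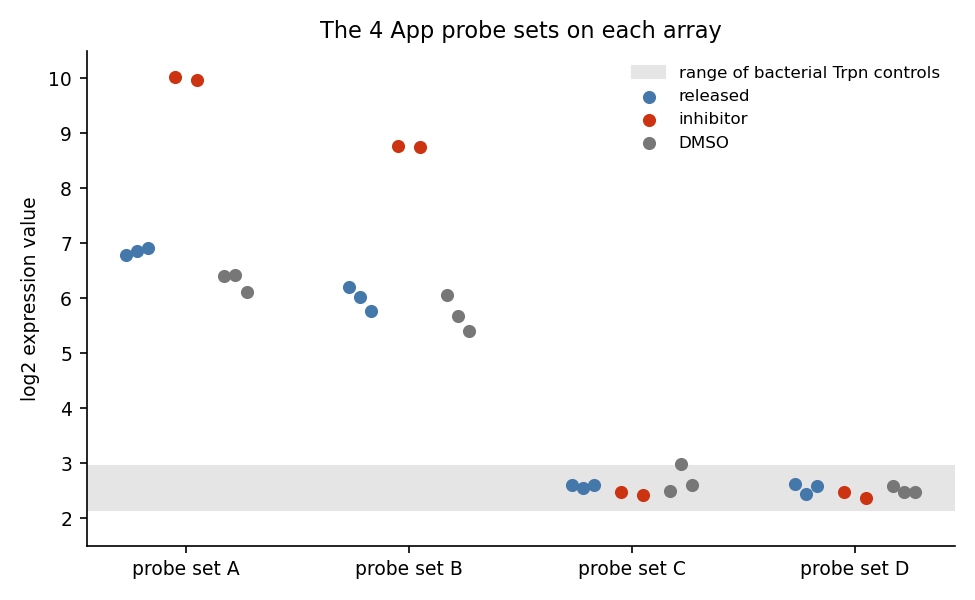
Log2 expression values of the 4 App probe sets, A to D in order of mean level (A is 1427442_a_at, B is 1420621_a_at, C and D are 1438374_x_at and 1438373_at), with 1 point per array, coloured by group, and the range of bacterial Trpn controls in grey. A and B are highest on the 2 inhibitor-treated arrays; C and D stay near the controls on all 8 arrays.

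Aplp1, the precursor relative known mainly from neurons, moved the other way. It read 7.22 and 7.17 in inhibitor-treated cells, against 8.32, 8.36 and 8.34 in DMSO cells. The groups did not overlap, and the difference was -1.15 ± 0.059, or 2.22-fold lower. Its second probe set differed by -0.60 ± 0.11, also without overlap, with 5.25 and 5.50 in inhibitor-treated cells and 5.89, 5.90 and 6.14 in DMSO cells.

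Aplp2, the widely expressed relative, hardly differed. It read 9.82 and 9.76 in inhibitor-treated cells and 9.67, 9.69 and 9.73 in DMSO cells, a difference of 0.09 ± 0.064. Its 5 probe sets ranged from -0.04 to 0.09. The 3 precursor genes thus gave a large rise, a fall and a difference of about its own error, as the plot of the 9 genes by array shows.

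**Figure D2:**
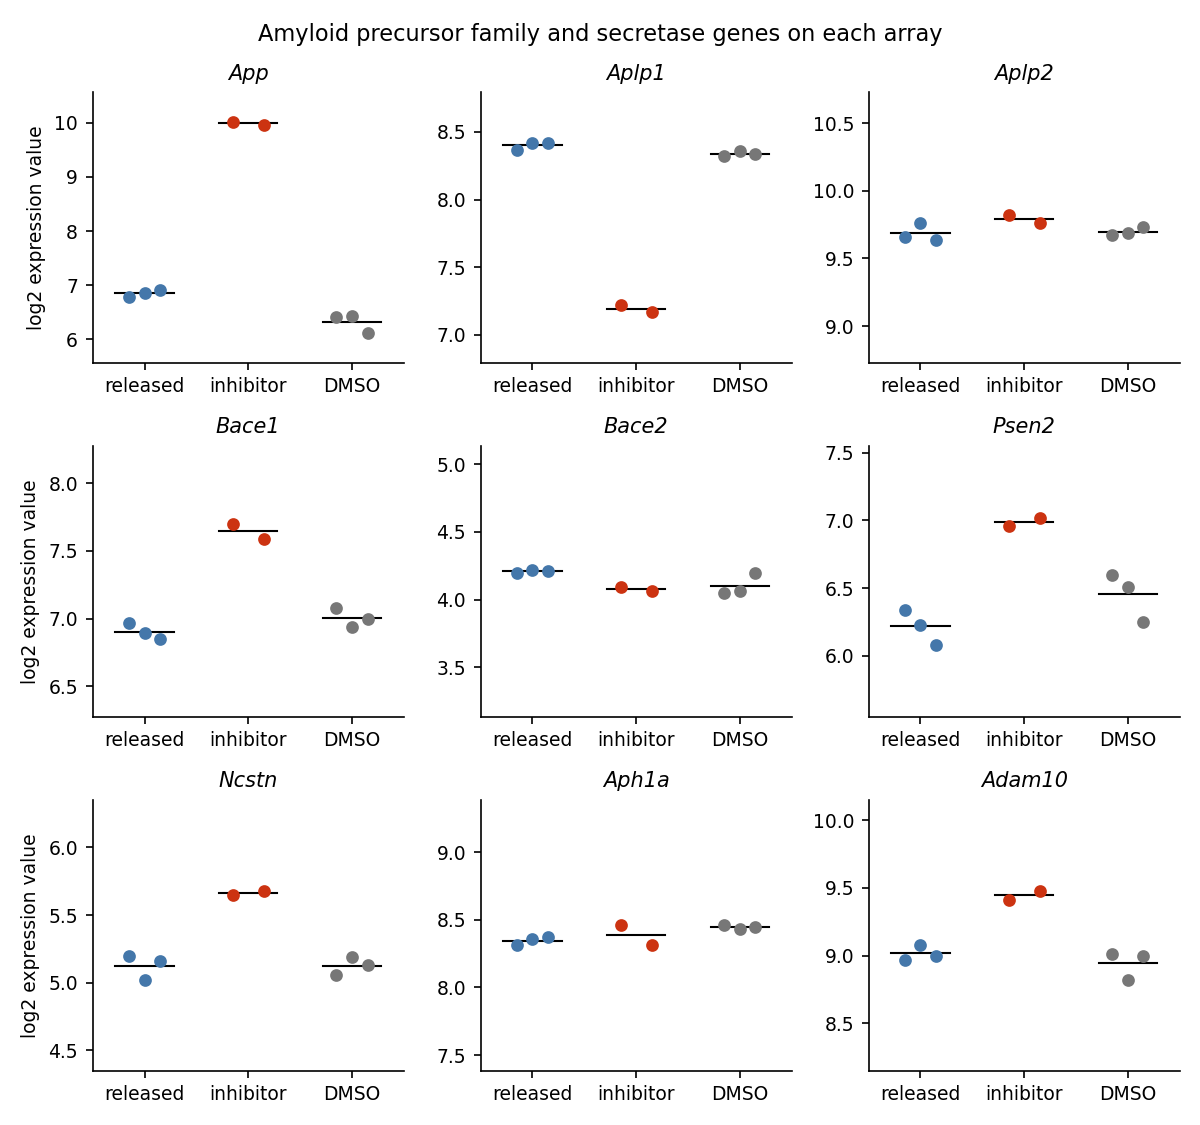
Log2 expression values (y axis, each panel with its own range of 2 log2 units, 5 for App) of the 9 genes on the probe set with the highest mean level, with 1 point per array for released, inhibitor-treated and DMSO cells and a line at each group mean. App is highest and Aplp1 lowest in the inhibitor-treated cells, at means of 9.99 and 7.19.

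Of the beta-secretases, Bace1, whose product makes the cut that starts amyloid-beta formation, was higher with the inhibitor. It read 7.70 and 7.59 in inhibitor-treated cells and 7.08, 6.94 and 7.0 in DMSO cells, without overlap, and the difference was 0.64 ± 0.071, or 1.55-fold. A second probe set differed by 0.61 ± 0.10, and the last 2 by -0.01 ± 0.12 and 0.13 ± 0.080. Bace2, the close relative that can also cut APP within the amyloid-beta stretch, was dim. Its brightest probe set read 4.09 and 4.06 in inhibitor-treated cells and 4.05, 4.06 and 4.20 in DMSO cells, a difference of -0.03 ± 0.066. The other 4 probe sets of Bace2 lay between 2.46 and 4.18 on all arrays, near the Trpn controls. One of them, 1416673_at, read 2.91 and 2.87 in inhibitor-treated cells and 3.14, 3.12 and 3.42 in DMSO cells, without overlap, a difference of -0.34 ± 0.093 that was called by probe set. In released cells it read 3.19, 3.23 and 3.23, higher than with the inhibitor by 0.33 ± 0.093, also called by probe set.

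Of the gamma-secretase subunits, Psen2 and Ncstn were higher with the inhibitor. Psen2, which encodes a presenilin, the catalytic subunit, read 6.96 and 7.02 in inhibitor-treated cells and 6.60, 6.51 and 6.25 in DMSO cells, a difference of 0.54 ± 0.11. Its other probe set differed by 0.00 ± 0.078. Ncstn, which encodes nicastrin, the subunit that takes in substrates, read 5.65 and 5.68 in inhibitor-treated cells and 5.06, 5.19 and 5.13 in DMSO cells, a difference of 0.54 ± 0.074. Its dimmer probe set differed by 0.29 ± 0.077. In both genes the brighter probe set gave groups that did not overlap.

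The probe sets of Aph1a, a scaffold subunit of the complex, disagreed. The brightest, 1424980_s_at, read 8.46 and 8.31 in inhibitor-treated cells and 8.46, 8.43 and 8.45 in DMSO cells, with overlap and a difference of -0.06 ± 0.066. A dimmer one, 1451554_a_at, read 6.14 and 6.22 in inhibitor-treated cells and 5.81, 5.62 and 5.61 in DMSO cells, with no overlap and a difference of 0.50 ± 0.086. The last one differed by 0.15 ± 0.083. In Affymetrix naming, the suffix s marks a probe set that can match transcripts of other genes, and x one that shares probes with unrelated sequences. Brightest probe sets with these suffixes were those of Aph1a and Aplp1 (s) and Aplp2 (x).

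Adam10, which encodes the main alpha-secretase, was modestly higher. It read 9.41 and 9.48 in inhibitor-treated cells and 9.01, 8.82 and 9.0 in DMSO cells, without overlap, and the difference was 0.50 ± 0.077, or 1.42-fold. The other probe sets differed by 0.44 ± 0.071, 0.23 ± 0.076 and -0.06 ± 0.088, in order of falling level. Adam10, Bace1, Psen2 and Ncstn thus lay within a narrow span, from 0.50 to 0.64, well below the 3.67 of App.

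In the limma fit over all 18193 genes, with 1 probe set per gene and Benjamini-Hochberg adjusted p under 0.05, 6 of the 9 genes were called between inhibitor-treated and DMSO arrays, where 41.5% of all genes were called. Of these, 5 were higher (App, Bace1, Psen2, Ncstn and Adam10), where 19.2% of all genes were, and 1 was lower (Aplp1), where 22.3% were. Groups did not overlap for 7 of the 9, the 6 called and Aplp2, against 60.5% of all genes; 6 lay higher, against 25.5%, and 1 lower, against 35%. The median log2 difference of the 9 was 0.50, and -0.06 over all genes. By probe set, 14 of 31 were called, against 37.3% of all 34945 probe sets with 1 symbol. Since these differences helped to choose the genes, nothing is read from the counts.

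**Figure D3:**
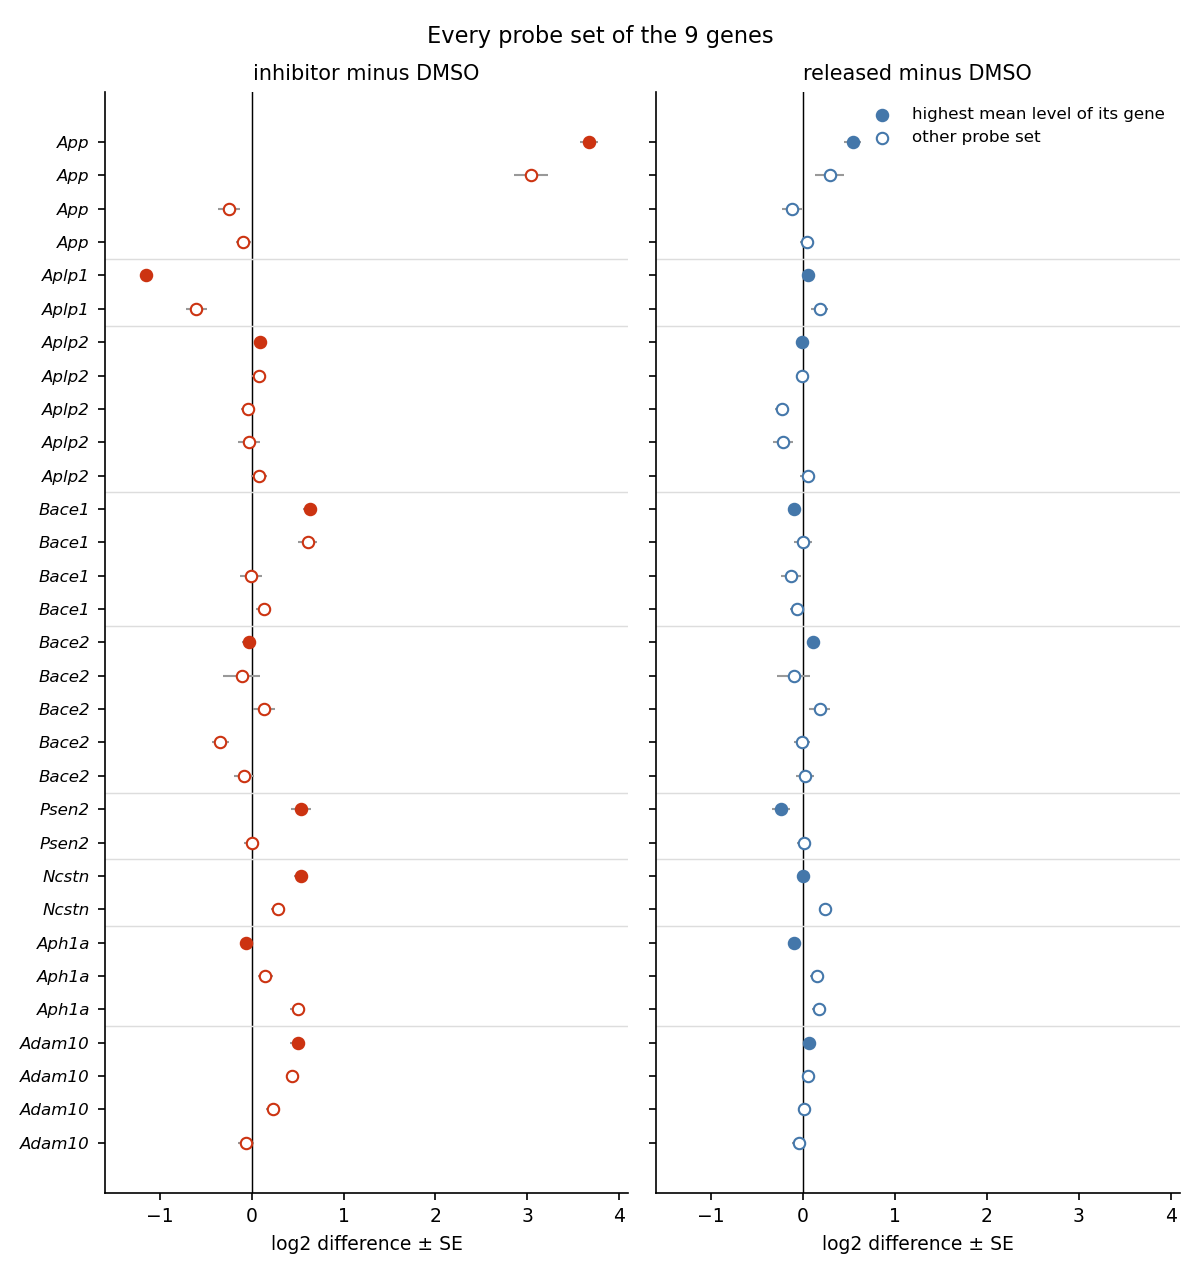
Log2 difference (x axis, ± standard error) of all 31 probe sets, grouped by gene from top to bottom, for inhibitor-treated minus DMSO arrays (left) and released minus DMSO arrays (right). Filled points mark the probe set with the highest mean level of its gene; 2 App probe sets stand at 3.67 and 3.04 on the left, and all released differences lie between -0.24 and 0.54.

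After withdrawal, App was lower than under the inhibitor and still above DMSO on its brightest probe set. It read 6.79, 6.86 and 6.91 in released cells, against 10.02 and 9.96 in inhibitor-treated and 6.41, 6.43 and 6.12 in DMSO cells. Released values were all below the inhibitor-treated and all above the DMSO values. The difference was -3.13 ± 0.096 from inhibitor-treated cells, 8.78-fold lower, and 0.54 ± 0.086 from DMSO cells, 1.45-fold higher. On the second probe set, released cells read 6.21, 6.03 and 5.76, which overlapped with the 6.06, 5.68 and 5.41 of DMSO cells, with a difference of 0.29 ± 0.16. With all 4 App probe sets averaged, the call against DMSO was lost, at a difference of 0.19 (limma adjusted p = 0.161).

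Aplp1 was back at about its DMSO level, with 8.37, 8.42 and 8.42 in released cells and 8.32, 8.36 and 8.34 in DMSO cells, a difference of 0.06 ± 0.053. Against inhibitor-treated cells it was higher by 1.21 ± 0.059. Bace1 read 6.97, 6.89 and 6.85 in released cells and 7.08, 6.94 and 7.0 in DMSO cells, and differed by -0.10 ± 0.064. Ncstn differed from DMSO by 0.00 ± 0.066 and Adam10 by 0.07 ± 0.068, and their released and DMSO values overlapped on these probe sets. The dimmer Ncstn probe set, 1444532_at, differed from this. It read 3.39, 3.50 and 3.36 in released, 3.52 and 3.41 in inhibitor-treated and 3.11, 3.19 and 3.23 in DMSO cells. Its released values differed from DMSO by 0.24 ± 0.069, without overlap. That difference was not called by probe set (limma adjusted p = 0.0677), and the values lay near the Trpn controls. Psen2 had 6.34, 6.23 and 6.08 in released cells and 6.60, 6.51 and 6.25 in DMSO cells. Its difference of -0.24 ± 0.098 was the largest downward one among the 9 genes, and the groups overlapped.

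In the same limma fit, 1 of the 9 genes, App, was called between released and DMSO arrays, where 8.66% of all genes were called and 4.66% were called higher. Of the 9, 0 were called lower, against 4.01% of all genes, and at an unadjusted p under 0.05 there was 1, Psen2. Groups did not overlap for 4 of the 9, against 28.6% of all genes. App, Aplp1 and Bace2 lay higher, against 14.6%, and Aph1a lower, against 14%. By probe set, 1 of 31 was called, against 6.63% of all. Between released and inhibitor-treated arrays, 6 of the 9 were called, against 41.9% of all genes. Aplp1 was higher, against 22.7% of all genes. App, Bace1 (-0.74 ± 0.071), Psen2 (-0.77 ± 0.11), Ncstn (-0.54 ± 0.074) and Adam10 (-0.43 ± 0.077) were lower, against 19.2%. The call of Ncstn ended with the probe set of largest interquartile range, at -0.05 (limma adjusted p = 0.677), where Aph1a was called in its place at -0.33 (limma adjusted p = 0.0142). Groups did not overlap for 8 of the 9, against 61.9% of all genes, with 2 higher, against 36.2%, and 6 lower, against 25.7%. By probe set, 13 of 31 were called there, against 36.8% of all. The comparisons share the DMSO or the inhibitor-treated arrays, so their values are not independent.

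Among genes with a full symbol, those whose course over the 8 arrays was nearest to that of App were Slc25a24, Cebpb, Anxa3, Dgkh and Sstr5. Nearness was the root mean square distance between log2 values taken as differences from the DMSO mean, and it ran from 0.18 for Slc25a24, a mitochondrial carrier gene, to 0.303 for Sstr5, a somatostatin receptor gene. Cebpb, a stress-responsive transcription factor gene, was higher with the inhibitor by 3.84 ± 0.10 and Dgkh, a diacylglycerol kinase gene, by 3.28 ± 0.072. Dgkh was also higher in released than in DMSO cells, by 0.73 ± 0.065 (limma adjusted p = 0.000174), and Cebpb differed by 0.29 ± 0.093 (limma adjusted p = 0.0877). The genes nearest to Aplp1, the member with the lowest inhibitor value relative to DMSO, were Melk, Tcl1, Uhrf1, Plk1 and Spc24, at distances from 0.0365 to 0.0429. Melk, Plk1 and Spc24 are known for mitosis, and Uhrf1 for the upkeep of DNA methylation. Melk differed by -1.17 ± 0.066 with the inhibitor and Plk1 by -1.14 ± 0.065.

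Genes of the same pathway outside the 9 were taken from lists by function, which were also written with earlier results known. In each list the share of genes that passed can be set beside the 19.2% of all genes that rose and the 22.3% that fell with the inhibitor, and beside the 4.66% that were higher and 4.01% that were lower after withdrawal. Several calls of small size ended when 1 of the 8 arrays was left out, and such arrays or their number are given with the list. A strip plot of the lists gives every gene.

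**Figure D4:**
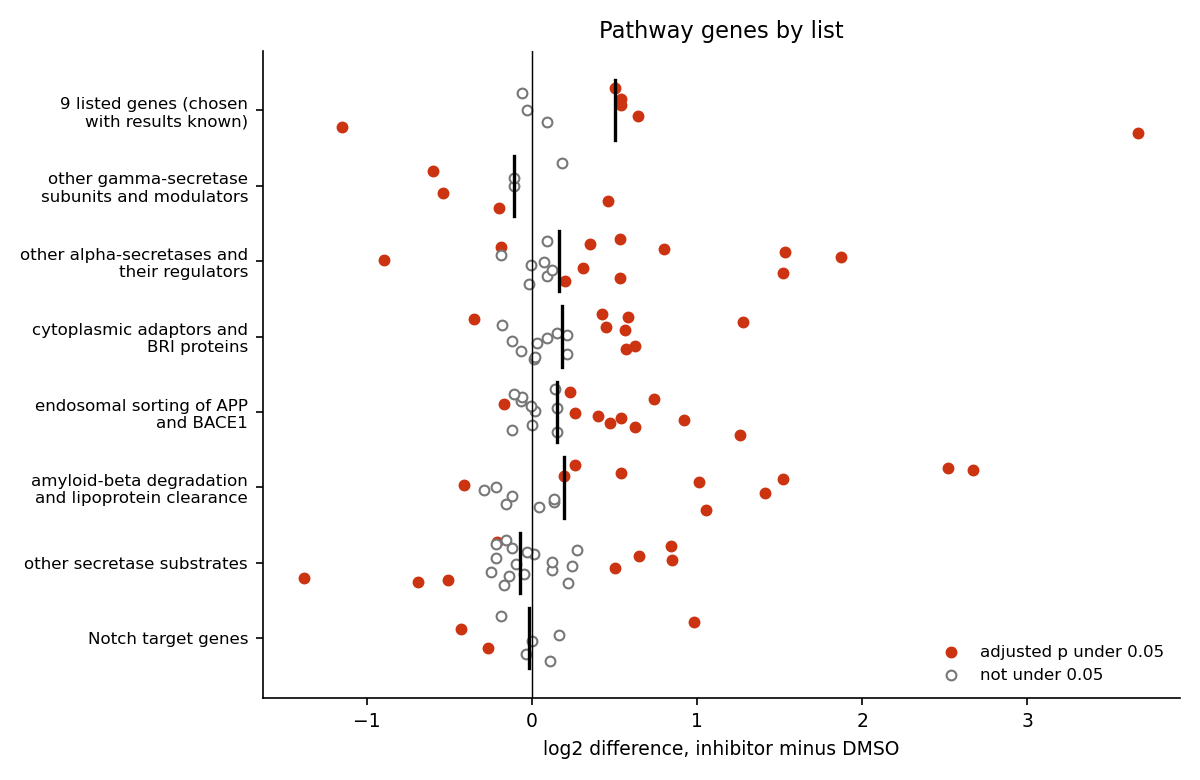
Log2 difference of inhibitor-treated minus DMSO cells (x axis) for each gene of the 8 lists, with 1 point per gene, filled where the limma adjusted p was under 0.05, and a black bar at each list's median. The medians of the 7 lists outside the 9 genes lie between -0.11 and 0.19.

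Of 7 measured genes for other gamma-secretase subunits and modulators, 1 rose and 3 fell with the inhibitor, with a median of -0.11. Aph1b, which encodes an alternative APH-1 subunit, rose by 0.46 ± 0.093 (limma adjusted p = 0.00281), with 4.62 and 4.89 in inhibitor-treated cells and 4.37, 4.22 and 4.30 in DMSO cells. Psenen, which encodes PEN-2, fell slightly (-0.20 ± 0.072, limma adjusted p = 0.045). Its call held under 7 of 17 alternatives only and ended without any 1 of 6 arrays. Ifitm3, described as a gamma-secretase modulator besides its antiviral role, fell by 0.60 on the log2 scale (SE 0.064; limma adjusted p = 3.86e-05), and Tmed10, a cargo receptor of the early secretory pathway that restrains gamma-secretase, by 0.54 (SE 0.058; limma adjusted p = 4.9e-05). Rer1 (-0.11 ± 0.079), Gsap (-0.11 ± 0.096) and Bsg (0.18 ± 0.072) did not pass. After withdrawal 0 of the 7 differed from DMSO in limma, and at an unadjusted p under 0.05 there were 1 higher and 3 lower. Psenen was just outside the threshold (-0.24 ± 0.064; limma adjusted p = 0.0507), and passed under 5 of 17 alternatives.

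In the list of other alpha-secretases and their regulators, of 18 measured genes 9 rose and 2 fell, with a median of 0.16. Among those that rose, calls ended without any 1 of 5 arrays for Adam9, any 1 of 3 for Tspan5 and 1 array for Lgmn. Tspan17, a tetraspanin that escorts ADAM10 out of the endoplasmic reticulum, rose 3.66-fold (1.87 ± 0.080; limma adjusted p = 1.48e-07), with 7.89 and 7.87 in inhibitor-treated cells and 5.97, 6.03 and 6.01 in DMSO cells. Rhbdf1, which encodes the ADAM17 escort iRhom1, rose by 1.52 ± 0.084. Genes of metalloproteinase inhibitors rose as well, Timp3 by 1.53 ± 0.10 and Reck by 0.80 ± 0.079. The 2 that fell, named after their values were seen, were the tetraspanin gene Tspan15 (-0.90 ± 0.090) and the Wnt antagonist gene Sfrp1 (-0.19 ± 0.065), whose call ended without any 1 of 7 arrays. The values for Adam17 itself were close together on its brightest probe set, with a difference of -0.02 ± 0.060. Its 3 probe sets ranged from -0.26 to -0.02. After withdrawal, 3 of the 18 were higher than DMSO and 3 lower, and the lower count was 1 without released replicate 1. Reck had the smallest p (0.50 ± 0.071; limma adjusted p = 0.00229). The protease genes Adam9 (0.41 ± 0.060) and Furin (0.31 ± 0.063) were higher too, and Adam19 (-0.30 ± 0.061), Tspan14 (-0.25 ± 0.057) and Tspan15 (-0.32 ± 0.081) were lower. The call of Tspan15 ended without any 1 of 7 arrays and that of Tspan14 without any 1 of 5. That of Furin ended without DMSO replicate 2 (limma adjusted p = 0.0532) and without released replicate 2 (0.062), and that of Adam19 without DMSO replicate 3 (0.054) and without released replicate 3 (0.0626).

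Among cytoplasmic adaptors and the BRI proteins, which bind APP, of 18 measured genes 7 rose and 1 fell with the inhibitor, with a median of 0.18. The kinesin light chain gene Klc1 rose by 1.28 ± 0.083 (limma adjusted p = 1.59e-06), the FE65-like adaptor gene Apbb2 by 0.57 ± 0.062 and the NUMB-like adaptor gene Numbl by 0.56 ± 0.071. Itm2b, which encodes BRI2, an inhibitor of APP processing, rose by 0.58 ± 0.065 on its brightest probe set, while another of its probe sets differed by -0.37. The gene that fell was its relative Itm2a (-0.35 ± 0.076). Itm2a was also lower in released cells than in DMSO cells (-0.34 ± 0.068; limma adjusted p = 0.0142), a call that ended without released replicate 1 (0.0525) and without DMSO replicate 2 (0.0511). Of the 18, 1 was higher and 1 lower than DMSO after withdrawal; the higher one was Itm2c (0.31 ± 0.067), whose call ended without DMSO replicate 1 (limma adjusted p = 0.0686), released replicate 2 (0.0684) or released replicate 3 (0.0729).

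Of 20 measured genes for endosomal sorting of APP and BACE1, 9 rose and 1 fell, with a median of 0.15. Among those that rose, calls ended without any 1 of 5 arrays for Lrp4, any 1 of 2 for Rtn4 and 1 array for Vps26a. Sorl1, the sorting receptor that returns APP from endosomes, rose 2.4-fold (1.26 ± 0.060; limma adjusted p = 2.63e-07), with 9.22 and 9.18 in inhibitor-treated cells and 7.95, 7.88 and 7.97 in DMSO cells. Its 3 probe sets ranged from 0.74 to 1.48. The reelin receptor gene Lrp8 rose by 0.92 ± 0.088, the sorting receptor gene Sorcs2 by 0.62 ± 0.077 and the endocytic adaptor gene Bin1 by 0.74 ± 0.093. Probe sets of Lrp8 ranged from 0.13 to 1.36. Those of Bin1 ranged from -0.38 to 0.74, and their mean, 0.12, was not called (limma adjusted p = 0.155). The gene that fell was Gga2 (-0.17 ± 0.061; limma adjusted p = 0.0455), a call that ended without any 1 of the 8 arrays. After withdrawal 0 of the 20 passed in limma, with 1 higher and 1 lower at an unadjusted p under 0.05. Sorl1 differed by 0.18 ± 0.054 (limma adjusted p = 0.0682).

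Of 17 measured genes for amyloid-beta degradation and lipoprotein clearance, 9 rose and 1 fell, with a median of 0.19. Among those that rose, the calls of Apoe and Cst3 each ended without any 1 of 4 arrays. The cholesterol exporter gene Abca1 rose 6.38-fold (2.67 ± 0.071; limma adjusted p = 1.25e-08), with 8.94 and 8.99 in inhibitor-treated cells and 6.25, 6.39 and 6.23 in DMSO cells. Vldlr, a lipoprotein and reelin receptor gene, rose 5.73-fold (2.52 ± 0.14; limma adjusted p = 6.41e-07). The lysosomal protease genes Ctsd (1.52 ± 0.072) and Ctsb (1.01 ± 0.062) rose too. Other probe sets of Abca1, Vldlr and Ctsb differed by as little as 0.09, 0.01 and 0.11. The gene that fell was the matrix metalloproteinase gene Mmp14 (-0.41 ± 0.12), a call that ended without inhibitor-treated replicate 1 (limma adjusted p = 0.105) and without inhibitor-treated replicate 2 (0.0539). In released cells 3 of the 17 were higher than in DMSO cells and 2 lower, and the lower count was 0 without released replicate 1. Abca1 remained higher (0.46 ± 0.063; limma adjusted p = 0.00207), though not on the average over its probe sets (0.11; limma adjusted p = 0.484). The others that passed were Vldlr (0.56 ± 0.12) and the metalloproteinase gene Mmp2 (0.51 ± 0.12), higher, and Mme (-0.35 ± 0.068), which encodes the amyloid-beta protease neprilysin, and the cystatin gene Cst3 (-0.30 ± 0.073), lower. These calls ended without any 1 of 4 arrays for Vldlr, 4 for Mmp2, 2 for Mme and 5 for Cst3. Those of Vldlr and Mme also ended with the mean of all probe sets, at 0.14 and -0.14. Probe sets ranged there from -0.23 to 0.56 for Vldlr and from -0.35 to 0.06 for Mme.

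Of 24 measured genes for other secretase substrates 4 rose and 4 fell with the inhibitor, with a median of -0.08; at an unadjusted p under 0.05 there were 5 higher and 7 lower. Jag1, which encodes a Notch ligand, fell 2.61-fold (-1.38 ± 0.074; limma adjusted p = 4.92e-07), with 7.08 and 7.20 in inhibitor-treated cells and 8.54, 8.44 and 8.59 in DMSO cells. The receptor gene Notch3 fell too (-0.69 ± 0.084), with Notch4 (-0.51 ± 0.11) and the sialyltransferase gene St6gal1 (-0.21 ± 0.075), whose call ended without any 1 of 5 arrays. The genes that rose were those of the ephrin Efnb2 (0.85 ± 0.13), the syndecan Sdc3 (0.65 ± 0.079), N-cadherin, Cdh2 (0.50 ± 0.10), and Sez6l (0.84 ± 0.16). Probe sets of Efnb2 ranged from -0.18 to 0.98 and those of Sdc3 from -0.06 to 0.65. The means of their probe sets, 0.42 and 0.29, were still called. For Notch4 the probe sets ranged from -0.51 to 0.01 with the inhibitor. In released cells 2 were higher than DMSO and 3 lower, and the lower count was 1 without released replicate 1. Notch4 read 6.04, 6.17 and 6.02 in released cells and 4.97, 5.21 and 5.01 in DMSO cells, a rise of 1.01 ± 0.095 (limma adjusted p = 0.000246), or 0.40 with the mean of its probe sets. Cdh2 was higher (0.38 ± 0.091), and Jag1 (-0.34 ± 0.066), the E-cadherin gene Cdh1 (-0.25 ± 0.059) and St6gal1 (-0.54 ± 0.067) were lower. The calls of Cdh2 and Cdh1 ended without any 1 of 4 and 5 arrays, and that of Jag1 without released replicate 1 (limma adjusted p = 0.0515).

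Genes known as Notch targets showed no common direction. Of 8 measured genes 1 rose and 2 fell with the inhibitor, with a median of -0.02. The ubiquitin ligase gene Dtx1 rose by 0.98 ± 0.074 (limma adjusted p = 4.49e-06), and the feedback inhibitor gene Nrarp fell (-0.43 ± 0.078; limma adjusted p = 0.00141). Hey1, a repressor gene, fell by 0.27 (SE 0.077; limma adjusted p = 0.0173), a call that ended without inhibitor-treated replicate 1 (0.135) and without DMSO replicate 1 (0.0531). Lfng differed by -0.19 ± 0.089 (limma adjusted p = 0.126). In released cells 0 of the 8 passed in limma against DMSO, with 1 higher at an unadjusted p under 0.05, Hey1 (0.17 ± 0.069; limma adjusted p = 0.175).

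Markers of other cell types that the cultures could hold also differed with the inhibitor, where 19.2% of all genes rose and 22.3% fell. Of 13 neural markers 0 rose and 7 fell with the inhibitor (0 rose at an unadjusted p under 0.05), and their summed log2 level was 68.2 to 69.2 on inhibitor-treated and 73.9 to 74.7 on DMSO arrays. Of 12 trophectoderm markers 6 rose and 0 fell (also 0 at an unadjusted p under 0.05), with sums of 76.8 to 77.9 on inhibitor-treated and 63.8 to 65.1 on DMSO arrays. Those that rose were Krt18 (5.0 ± 0.15), Krt8 (3.24 ± 0.086), Eomes (2.23 ± 0.070), Gata3 (1.28 ± 0.12), Krt7 (1.10 ± 0.20) and Tead4 (0.26 ± 0.079). The call of Tead4 ended without any 1 of 2 arrays. Of the 6 trophectoderm markers not called, Cdx2 read 4.51 and 4.96 in inhibitor-treated and 4.86, 4.86 and 5.08 in DMSO cells. Elf5, also not called, read 2.84 and 3.10 in inhibitor-treated and 3.01, 2.75 and 2.89 in DMSO cells, near the Trpn controls. Of 10 endoderm markers 0 rose and 3 fell, Sox7, Foxa2 and Ttr (1 higher at an unadjusted p under 0.05). Their sums were 41.3 to 41.5 on inhibitor-treated and 42.3 to 43.0 on DMSO arrays. The call of Ttr ended without any 1 of 4 arrays and that of Foxa2 without 1 array. Ttr was not called with the mean of its probe sets (-0.02) or with the probe set of largest interquartile range (0.22). Only 1 endoderm marker fell when genes below the 30th percentile of level were dropped. Of 10 fibroblast and feeder markers 1 rose and 2 fell, with sums of 48.5 to 49.4 on inhibitor-treated and 50.1 to 50.4 on DMSO arrays; Fn1 rose, and Thy1 and Vim fell. After withdrawal 1 neural marker was higher than DMSO and 3 were lower, and 1 trophectoderm marker was higher and 2 were lower, against 4.66% and 4.01% of all genes. Krt18 stayed higher (1.59 ± 0.13), while Krt7 (-1.21 ± 0.18) and Tfap2c (-1.08 ± 0.089) were lower. Of the endoderm markers Lama1 was lower, and 0 of the fibroblast and feeder markers passed in limma, with 1 higher and 1 lower at an unadjusted p under 0.05. Released arrays had sums of 71.9 to 73.1 for the neural, 64.1 to 65.7 for the trophectoderm, 41.7 to 42.2 for the endoderm and 50.4 to 50.6 for the fibroblast list. Their part in the differences of the 9 genes was not tested.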

How the data were processed

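The authors deposited 1 log2 expression value for each probe set on each array. Per the submitters' processing notes the tools were oligo 1.32.0, RMA and limma 3.2.15; their roles are not given in the sources used here, and the log2 scale was inferred from the range of values (1.69 to 13.76). RMA corrects background, equalises arrays and summarises probes. Of 45101 probe sets, 34945 have 1 gene symbol, 932 have several, 64 are controls and 9160 are not named here.

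Per gene, the probe set brightest on average across the 8 arrays was used (18193 genes; 9010 genes have more than 1). Group means were fitted with limma 3.58.1 in R 4.3.3 (5 residual degrees of freedom, prior 4.55), with a two-sided p adjusted by Benjamini-Hochberg over all genes and a threshold of 0.05, and again over all 34945 probe sets. On simulated data for 18193 genes, only a small share of the genes was changed. There, 86% of log2 changes of 0.5 between inhibitor-treated and DMSO arrays were recovered and 100% of those of 1, and 6.31% of calls were false. Between these groups 41.5% of all genes were called in the deposited data, so the simulated percentages need not hold for them. Read depth does not apply, and the number of arrays limits precision: the median standard error was 0.0828 for inhibitor-treated and 0.0741 for released against DMSO arrays.

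The 9 genes and the other lists were chosen with earlier results of these data known. Named were all 9 genes, all gamma-secretase list genes, and from each other list the 4 genes with the smallest p for inhibitor against DMSO and the 1 with the smallest p for released against DMSO; the 5 nearest genes to App and to the lowest member were also named. Genes given beyond this, among them those behind counts of 5 or fewer, the cell type markers, and Adam17, were chosen after their values were seen. Genes of the lists without a probe set of 1 symbol were not analysed here. Replicate numbers were not used for pairing: deviations of same-numbered arrays from their group means correlated at -0.06 to 0.01. Python 3.11.15 with pandas 2.3.3 and matplotlib 3.10.9 read tables and drew plots.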

Additional observations from a re-analysis of the deposited data

How the results depend on the processing

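The results were recomputed under 17 alternatives: leaving out each array, a replicate block, array weights, fitting only the groups compared, a robust fit with a variance trend, quantile normalization again, centring on medians, dropping genes below the 30th percentile of level, and choosing the probe set by interquartile range or averaging all of a gene's probe sets. None turned the direction of a called difference of the 9 genes. Called member genes stayed at 6, 1 and 6 (inhibitor against DMSO, released against DMSO, released against inhibitor) without any 1 array and with the replicate block. Inhibitor against DMSO gave 7 with the mean of all probe sets and with the probe set of largest interquartile range. Released against DMSO fell to 0 with the mean of all probe sets, and by probe set became 2 with the variance trend. Genes called over all 18193 ranged from 5931 to 7446, 1000 to 1344 and 6003 to 7637 when 1 array was left out, against 7557, 1576 and 7616 with all arrays. For released against DMSO the count was 1000 without released replicate 2, 1008 without released replicate 1 and 2641 with the variance trend. Probe sets of the 9 genes called ranged from 12 to 14, stayed at 1, and ranged from 11 to 14. With the replicate block all genes called were 6826, 1180 and 6825, and probe sets called 13, 1 and 11. The choice of probe set moved single values most: App became 1.59 with the mean and Itm2b turned to -0.37 with the probe set of largest interquartile range, as other probe sets then enter. Aph1a became 0.50 (limma adjusted p = 0.0012) in that setting. Median centring made the genes called with the inhibitor 3169 higher and 5138 lower, against 3497 and 4060. With 2 inhibitor-treated arrays, leaving 1 out assumes that the other varies like the other groups. Probe sets near the Trpn controls limit what can be said of Bace2.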

Other observations

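Of 13 neural markers, 7 fell with the inhibitor, and after withdrawal 3 were lower and 1 higher than DMSO, with a median of 0.02. Among those that had fallen, released cells differed from DMSO by 0.04 ± 0.071 for Stmn2, -0.10 ± 0.068 for Ncam1 and 0.21 ± 0.066 for Neurod1. Sox1 fell with the inhibitor (-0.31 ± 0.083) and was also lower after withdrawal (-0.36 ± 0.074, limma adjusted p = 0.0165). The latter call ended without any 1 of 2 arrays. With the inhibitor, calls ended without any 1 of 2 arrays for Sox1 and without 1 array each for Stmn2 and Neurod1. Map2, Tubb3 and Mapt are given here for their size or role and were chosen after their values were seen. Map2, which encodes a dendritic microtubule protein, read 3.88, 4.36 and 3.98 in released cells, 3.21 and 3.26 in inhibitor-treated cells and 5.42, 5.37 and 5.32 in DMSO cells. It fell by 2.13 with the inhibitor on the log2 scale (SE 0.12; limma adjusted p = 8.06e-07) and stayed lower after withdrawal (-1.30 ± 0.11; limma adjusted p = 0.000125), on the brightest of 4 probe sets that ranged from -2.13 to -0.03 with the inhibitor. Tubb3, a neuronal tubulin gene, read 7.05, 7.20 and 7.08 in released cells, 6.29 and 6.18 in inhibitor-treated cells and 7.65, 7.70 and 7.53 in DMSO cells. It was lower than DMSO both with the inhibitor (-1.39 ± 0.079; limma adjusted p = 7.25e-07) and after withdrawal (-0.52 ± 0.070; limma adjusted p = 0.00193). Mapt, which encodes tau, fell with the inhibitor on its brightest probe set (-0.41 ± 0.059, limma adjusted p = 0.000302). Its 4 probe sets ranged from -0.41 to -0.01 there, and their mean, -0.15, was not called (limma adjusted p = 0.107). After withdrawal Mapt was above DMSO (0.22 ± 0.052, limma adjusted p = 0.0317), a call that ended without any 1 of 6 arrays.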
